A study of Mus musculus with 4 samples.

Results

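The SR and hnRNP splicing factor families were taken as 35 listed genes: 15 SR and SR-related genes (11 Srsf genes, Tra2a, Tra2b, Srrm1 and Srrm2) and 20 hnRNP and polypyrimidine tract-binding genes. A probe set was used when the array annotation gave it a single gene symbol that was on the list, and it was counted when its mean signal over the arrays was at least 50. Of the 35 genes, 33 had a value, from 91 counted probe sets of 108, against 12426 genes and 21585 counted probe sets on the whole array. Each gene was read at its brightest probe set. Srsf7 had no probe set with a single symbol and is not analysed here, and Hnrnpa3 was carried only by 4 probe sets that are annotated to another gene as well, so it has no value of its own. The rule that picks their probe sets uses no fold, but the list was drawn up with earlier results of these data known.

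RNA from the cerebrum of mouse pups lacking the lysolipid transporter Mfsd2a in endothelium was compared with that of floxed controls on Affymetrix Mouse 430 2.0 arrays, in 4 pools of 1 array each. The 2afl/fl pool (Mfsd2afl/fl) and the 2aECKO pool (Mfsd2afl/fl, Tie2-cre) were of postnatal day 9. The 2afl/fl 4-OHT pool (Mfsd2afl/fl) and the 2aiECKO pool (Mfsd2afl/fl, Cdh5ERT2-cre) were of postnatal day 8, and, by the study's methods, 4-hydroxytamoxifen was given to newborn pups on consecutive days to switch on the inducible cre. All 4 pools therefore carry the floxed allele, and the knockout model goes with age, cre line and drug. Each pool mixed equal amounts of RNA from 5 to 6 bisected cerebrums, and both sexes were used. Tie2-cre is also active in blood lineages, and the source label of the 2aiECKO pool reads 2aECKO although its title and genotype name the inducible line. With 1 array per group there was no replicate error, no test and no p-value, so every fold below is a difference between 1 pool and another.

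The median signal was 74.1 and 75.5 in the day 9 pair and 48.7 and 49.2 in the day 8 pair, so folds were taken only within a pair. Neuronal markers (Snap25, Syt1, Rbfox3, Tubb3 and Stmn2) were bright on all 4 arrays, with summed signals of 28840 to 36350, and markers of astrocytes, microglia and endothelium were measured as well. The signal of Mfsd2a itself was 423 in 2afl/fl, 410 in 2aECKO, 369 in 2afl/fl 4-OHT and 299 in 2aiECKO. The log2 fold of Mfsd2a was -0.05 in 2aECKO and -0.30 in 2aiECKO, so its brightest probe set hardly shows the deletion in 2aECKO. By western blot, the study reported much less of the transporter protein in brains of the non-inducible knockout. Why the array signal was nearly level in 2aECKO was not tested. Whole tissue holds cells that kept the gene. In such bulk RNA fewer cells of a type and less RNA per cell cannot be told apart.

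SR proteins carry an RNA recognition domain and a tail rich in arginine and serine, and they commonly bind exonic enhancers and help the spliceosome to include an exon. Proteins of the hnRNP families coat nascent RNA and often act as silencers of exons, although the effect of either class depends on where it binds. Several of these genes carry conserved stretches whose alternative splicing creates transcripts that are degraded, and in developing neurons Ptbp1 gives way to Ptbp2 as part of a well-known switch of splicing programmes.

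In 2aECKO relative to 2afl/fl, most of these genes had a slightly higher signal: 31 of the 33 lay above 0 on the log2 fold scale, where 46.3 percent of all 12426 genes did. Their median log2 fold was 0.09, within a range of -0.10 to 0.32, and the median of all genes was -0.01. The fold limit that the study's methods give for higher genes, a log2 fold of 0.32, was reached by 2.04 percent of all genes. Its mirror image of -0.32, which was set here and not by the study, was reached by 1.44 percent. Only Hnrnpa1 reached it among the members, at 0.3224 against a limit of 0.3219 and so just inside it, Srsf6 at 0.26 was the nearest outside, and none was lower by as much. Of 5383 genes whose mean signal reached 400, a level that all 33 members exceeded, 45.0 percent lay above 0.

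In 2aiECKO relative to 2afl/fl 4-OHT, 23 of the 33 genes lay above 0, against 46.4 percent of all genes. The median log2 fold was 0.05, within a range of -0.14 to 0.20, beside a median of 0.00 over all genes. No member reached the limit upwards, where 1.82 percent of all genes did, or downwards, where 0.547 percent did. Of the genes with a signal of 400 or above, 44.3 percent lay above 0. In both models together 21 members lay above 0, against 28.2 percent of all genes. That count follows from the high count in each model alone and is no separate evidence. Across the 33 members the log2 folds of both models, which share no array, correlated with r = 0.094 (Pearson) and rho = 0.135 (Spearman), and across all genes with r = 0.434 and rho = 0.396. These describe genes measured on the same arrays, not replicates. The median of the difference, 2aECKO minus 2aiECKO, was 0.07. It had no test, and its sign turned when the controls were exchanged or averaged, to -0.022 and -0.0084.

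**Figure D1:**
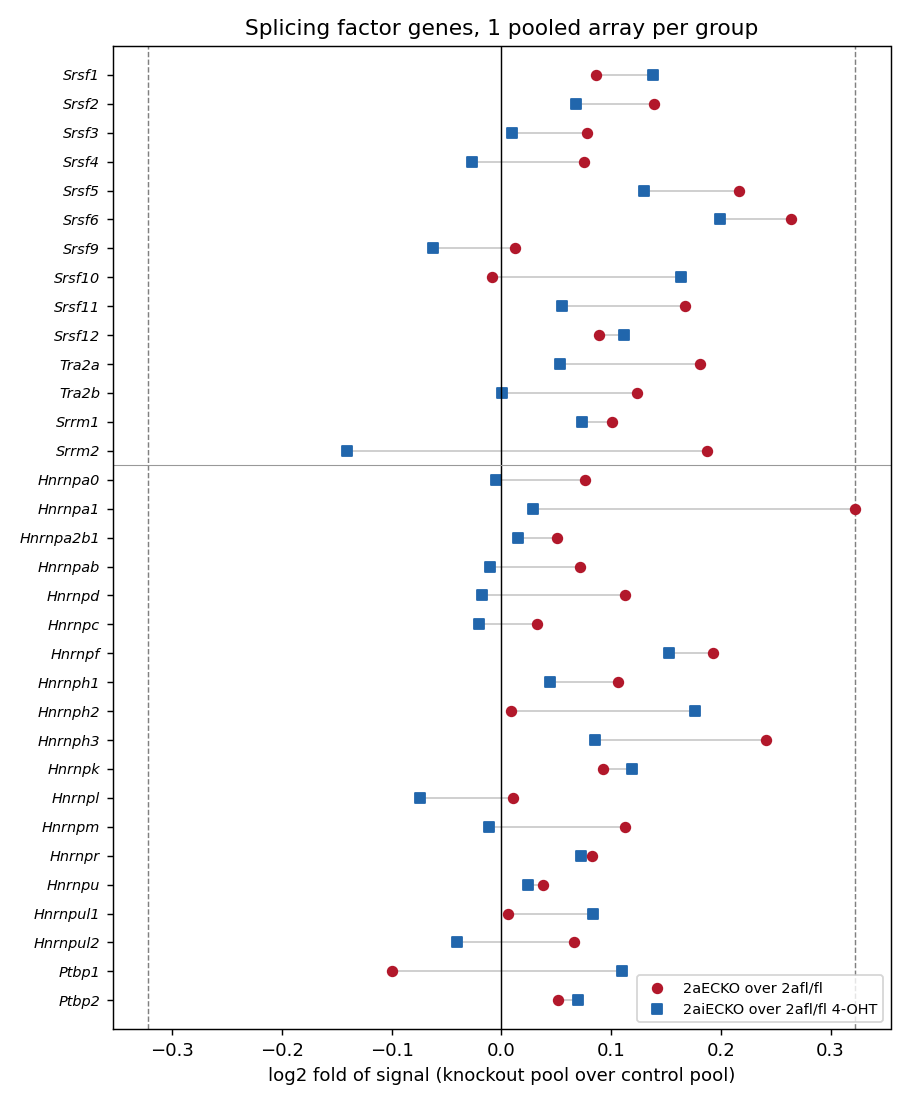
Log2 fold of the RMA signal for 33 splicing factor genes, knockout pool over its control pool, at the brightest probe set of each gene, with circles for 2aECKO and squares for 2aiECKO. The dashed lines mark log2 folds of 0.32 and -0.32, and the circles lie to the right of 0 for 31 genes, with Hnrnpa1 at 0.32 alone reaching the line, while the squares do so for 23 genes.

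The SR and SR-related genes had medians of 0.11 (2aECKO) and 0.06 (2aiECKO) on the log2 fold scale, with 13 and 11 of 14 above 0. Within them the 10 Srsf genes had a median of 0.09 in each model. The gene with the largest difference in this group was Srsf6, an SR protein with a pair of RNA recognition domains. At its brightest probe set the signal was 1395 in 2afl/fl, 1675 in 2aECKO, 1449 in 2afl/fl 4-OHT and 1664 in 2aiECKO. The knockout pool was the higher of each pair, with log2 folds of 0.26 and 0.20, and against the other model's control 2aECKO stood at -0.081. Its other probe sets were also above 0 in both models, with log2 folds of 0.09 and 0.26, 0.05 and 0.07, and 0.18 and 0.29. The brightest one is of a design that can also catch related transcripts, and without such designs Srsf6 stood at 0.05 in 2aECKO and 0.07 in 2aiECKO.

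Srsf5, an SR protein gene whose transcript is known to be quickly induced by growth signals, had a signal of 3828 in 2afl/fl, 4448 in 2aECKO, 3270 in 2afl/fl 4-OHT and 3579 in 2aiECKO. The knockout pool was the higher of each pair, with log2 folds of 0.22 and 0.13 from the single probe set that this gene has. Srsf11, a larger SR-related protein, had 1629, 1830, 1161 and 1206 on the same arrays in the same order. Its log2 folds were 0.17 and 0.06.

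Srsf1, the founding splicing factor of the family, had a signal of 2225 in 2afl/fl, 2362 in 2aECKO, 1497 in 2afl/fl 4-OHT and 1647 in 2aiECKO. All 6 of its counted probe sets were above 0 in both models, and the brightest gave log2 folds of 0.09 and 0.14. Srsf2, which acts at both constitutive and regulated exons, gave 0.14 and 0.07 at its brightest probe set, which is of less specific design, and its single probe set of more specific design gave -0.12 and 0.09. Srsf3, the smallest SR protein, stood at 0.08 and 0.01, and of its 6 counted probe sets 4 were below 0 in 2aECKO while all were above 0 in 2aiECKO. Srsf10, which is known as a repressor when dephosphorylated, had a signal of 737 in 2afl/fl, 733 in 2aECKO, 503 in 2afl/fl 4-OHT and 563 in 2aiECKO. It was the only Srsf gene below 0 in 2aECKO, at -0.01, and was at 0.16 in 2aiECKO. The remaining Srsf genes were Srsf4 at 0.08 and -0.03, Srsf9 at 0.01 and -0.06, and Srsf12 at 0.09 and 0.11.

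Tra2a and Tra2b, the SR-like relatives of the fly sex determination factor transformer-2, and the matrix-associated coactivators Srrm1 and Srrm2 were all above 0 in 2aECKO, with a median log2 fold of 0.15, and had a median of 0.03 in 2aiECKO. Tra2a had a signal of 587 in 2afl/fl, 665 in 2aECKO, 483 in 2afl/fl 4-OHT and 501 in 2aiECKO. Its log2 folds were 0.18 and 0.05. The other counted probe sets of Tra2a gave -0.01 and -0.07, and 0.18 and -0.07, the latter from day 8 signals of only 40.5 and 38.5. Averaged over its probe sets Tra2a stood at 0.12 and -0.03, so its sign in 2aiECKO depends on the probe set. The log2 folds of Tra2b were 0.12 and 0.00. Srrm1 stood at 0.10 and 0.07.

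Srrm2, a very large scaffold protein of nuclear speckles, was the one member whose log2 folds were at least 0.1 in size and opposite in sign, a limit that Ptbp1, at -0.0999 and 0.11, just missed. It had a signal of 1994 in 2afl/fl, 2271 in 2aECKO, 1330 in 2afl/fl 4-OHT and 1206 in 2aiECKO. The knockout pool was the higher in the day 9 pair and the lower in the day 8 pair, with log2 folds of 0.19 and -0.14. Another probe set gave 0.11 and -0.16, with signals of 522, 563, 374 and 334. A dim one, with signals of 83.6, 100.6, 27.0 and 31.1, lay above 0 in both, at 0.27 and 0.20. This difference between the models had no test.

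The 19 hnRNP and polypyrimidine tract-binding genes had medians of 0.07 (2aECKO) and 0.03 (2aiECKO) on the log2 fold scale, with 18 and 12 above 0. Hnrnpa1, an abundant shuttling protein that binds exonic and intronic silencers and opposes SR proteins at many exons, had the largest difference of all members in 2aECKO. At its brightest probe set the signal was 703 in 2afl/fl, 879 in 2aECKO, 976 in 2afl/fl 4-OHT and 996 in 2aiECKO. The 2aECKO pool was above its control by 0.32 on the log2 scale, and the 2aiECKO pool was above its own by 0.03. A second probe set of more specific design gave signals of 432, 582, 442 and 516. There the knockout pool was the higher of each pair, at 0.43 and 0.22, and one that was too dim to be counted gave 0.45 and 0.40. The second and the dim one are annotated to the same source sequence, so they are not separate evidence. A further 3 probe sets annotated to Hnrnpa1 and to other genes at once were not used. The 2 control pools also differed at the brightest probe set, by 0.77 on the log2 scale after quantile normalization over the 4 arrays, which was the widest gap of any member. Relative to the other model's control, Hnrnpa1 in 2aECKO stood at -0.43.

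Hnrnpa1 and Hnrnpa2b1, which turn up again at the level of single probe sets, are shown by the start of their genes, from RefSeq on GRCm38.p6. Each window runs from 250 bases before to 50 bases after the annotated start, and the capitals mark matches to the letters CCAAT or GGGCGG on either strand (CCAAT reads ATTGG on the other strand). The Hnrnpa1 window, chr15:103240147-103240446 on the plus strand, holds 4 CCAAT and 2 GGGCGG matches. The Hnrnpa2b1 window, chr6:51469845-51470144 on the minus strand, holds 1 CCAAT match and no GGGCGG match.
Hnrnpa1: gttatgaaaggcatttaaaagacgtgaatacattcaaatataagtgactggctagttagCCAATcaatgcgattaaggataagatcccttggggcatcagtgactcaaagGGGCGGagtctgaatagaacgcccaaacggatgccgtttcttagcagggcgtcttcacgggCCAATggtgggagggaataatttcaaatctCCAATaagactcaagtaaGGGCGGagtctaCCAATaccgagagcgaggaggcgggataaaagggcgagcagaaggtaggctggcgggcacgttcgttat
Hnrnpa2b1: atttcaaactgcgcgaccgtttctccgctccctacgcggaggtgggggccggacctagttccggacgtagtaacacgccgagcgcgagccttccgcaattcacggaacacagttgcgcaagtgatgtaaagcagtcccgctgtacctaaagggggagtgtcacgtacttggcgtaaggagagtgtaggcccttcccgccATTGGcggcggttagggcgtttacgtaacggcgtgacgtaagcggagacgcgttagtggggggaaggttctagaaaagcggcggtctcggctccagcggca

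A CCAAT match was found in 19 of the 34 member windows at hand, or 55.9 percent, beside 37.9 percent of 27025 windows of all genes. GGGCGG, the core of a GC box, was found in 27 of 34, or 79.4 percent, beside 35.9 percent of all windows, and TATAAA in 4, or 11.8 percent, beside 14.2 percent. These are matches of letters and not sites of binding. The windows of all genes were not limited to genes with a signal, so the members are not set beside genes of like signal. Of the members with a window and a value, 8 have another gene that starts upstream within 1000 bases on the opposite strand. Of those neighbours 6 were measured, and the share of all genes with such a neighbour was not taken. Looked at after the members' values were known, the neighbours ranged from -0.05 to 0.05 in 2aECKO and from -0.05 to 0.11 in 2aiECKO. Cbx5, a heterochromatin protein gene that starts 545 bases from Hnrnpa1, had a signal of 1747 in 2afl/fl, 1814 in 2aECKO, 1321 in 2afl/fl 4-OHT and 1423 in 2aiECKO, with log2 folds of 0.05 and 0.11. Hnrnpa1 itself stood at 0.32 and 0.03, so Cbx5 was below it in 2aECKO and above it in 2aiECKO. Any link between the members and their neighbours was not tested.

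Hnrnpa2b1, a partner of Hnrnpa1 in silencing that is also known for carrying RNA in oligodendrocytes and neurons, gave different folds at different probe sets. The brightest had a signal of 5286 in 2afl/fl, 5476 in 2aECKO, 3602 in 2afl/fl 4-OHT and 3640 in 2aiECKO, and log2 folds of 0.05 and 0.01. The next brightest, 1433829_a_at, had 1540, 2089, 783 and 979, with log2 folds of 0.44 and 0.32. Another, 1434047_x_at, had 943, 1016, 714 and 846, with log2 folds of 0.11 and 0.24. The fourth, 1433830_at, had 640, 870, 367 and 482, with log2 folds of 0.44 and 0.39. The knockout pool was the higher of its pair at every one of these probe sets, and the pair 1433829_a_at and 1433830_at, which are annotated to the same source sequence, stood well apart from the brightest in both models.

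The other A, B, D and C proteins differed little from their controls at their brightest probe sets. Hnrnpa0 stood at 0.08 and 0.00 and Hnrnpab at 0.07 and -0.01. Hnrnpd, which binds AU-rich elements of unstable transcripts, was at 0.11 and -0.02, and Hnrnpc, which binds runs of uridine, at 0.03 and -0.02. For Hnrnpab, another bright probe set, 1426114_at, had signals of 2910, 2900, 1634 and 1441. It gave -0.01 and -0.18, the lowest value of any counted member probe set in 2aiECKO. The remaining counted ones of Hnrnpab gave 0.14 and 0.00, 0.14 and 0.05, and 0.03 and 0.13.

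The F and H proteins, which bind runs of guanosine, were above 0 in both models for all 4 genes, with medians of 0.15 and 0.12. Hnrnpf had a signal of 1663 in 2afl/fl, 1901 in 2aECKO, 1315 in 2afl/fl 4-OHT and 1462 in 2aiECKO, and log2 folds of 0.19 and 0.15. This probe set is of less specific design, and without such designs Hnrnpf stood at 0.21 and 0.03. Hnrnph3, the shortest of them, had 487, 576, 534 and 567 and log2 folds of 0.24 and 0.09. Hnrnph2 had 2113, 2126, 1599 and 1807, so its pools were level at day 9, at 0.01, and apart at day 8, at 0.18. Its close relative Hnrnph1 stood at 0.11 and 0.04.

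The K, L, M and R proteins had medians of 0.09 and 0.03. Hnrnpk, which binds runs of cytidine, had a signal of 4288 in 2afl/fl, 4573 in 2aECKO, 3160 in 2afl/fl 4-OHT and 3432 in 2aiECKO, with log2 folds of 0.09 and 0.12. All 4 of its probe sets were above 0 in both models. Hnrnpr gave 0.08 and 0.07, Hnrnpm 0.11 and -0.01, and Hnrnpl, which binds CA repeats, 0.01 and -0.07. Among the U proteins, Hnrnpu, a scaffold attachment factor, had 2684, 2755, 2872 and 2921 at its brightest probe set, with log2 folds of 0.04 and 0.02. Hnrnpul1 stood at 0.01 and 0.08 and Hnrnpul2 at 0.07 and -0.04.

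Ptbp1, the repressor that precursor cells and glia express, had the lowest value of all members in 2aECKO. Its signal was 536 in 2afl/fl, 500 in 2aECKO, 441 in 2afl/fl 4-OHT and 476 in 2aiECKO, so the knockout pool was the lower at day 9 and the higher at day 8. The log2 folds were -0.10 and 0.11, and a second probe set gave -0.21 and -0.05. Ptbp2, its neuronal counterpart, had signals of 2764, 2865, 2288 and 2402 in the same order. It stood at 0.05 and 0.07, and its second probe set at -0.08 and 0.01.

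At the level of probe sets, 78 of the 91 lay above 0 in 2aECKO, or 85.7 percent against 44.9 percent of all probe sets, with a median log2 fold of 0.10. In 2aiECKO 68 did, or 74.7 percent against 46.4 percent, with a median of 0.07. The limit of 0.32 was reached upwards by 6 in 2aECKO, or 6.59 percent against 2.62 percent of all probe sets, and 2 in 2aiECKO, or 2.2 percent against 1.86 percent. Those in 2aECKO belonged to 4 genes, Hnrnpa1, Hnrnpa2b1, Hnrnpu and Srsf11. Those in 2aiECKO were of Hnrnpa2b1 and Srsf11, and 1433829_a_at of Hnrnpa2b1, at 0.3217 there, just missed the limit, which is 0.3219 unrounded. None reached it downwards, which 1.63 and 0.658 percent of all probe sets did. Probe sets of 1 gene share their target and are not separate measurements of the gene.

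Several members had a dimmer probe set that stood apart from the brightest. For Hnrnpu, the dimmest, 1434390_at, had a signal of 217 in 2afl/fl, 283 in 2aECKO, 147 in 2afl/fl 4-OHT and 166 in 2aiECKO. Its log2 folds were 0.38 and 0.17, and those of 1434391_at, annotated to the same source sequence, were 0.27 and 0.15. For Srsf11, 1430077_at had 82.3, 115.2, 43.2 and 64.5, which gave log2 folds of 0.48 and 0.58. That is the largest log2 fold of any counted member probe set in either model, from a signal below 50 in 1 of the 4 pools.

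Of the 23 members with more than 1 counted probe set, 3 had another one at least 0.3 (log2) above the brightest in 2aECKO (Hnrnpa2b1, Hnrnpu and Srsf11), or 13.0 percent against 3.62 percent of 5611 such genes. In 2aiECKO Hnrnpa2b1, Srsf11 and Srrm2 did, against 2.98 percent. The Srrm2 probe set had signals of only 27.0 and 31.1 in that pair and passed the minimum through the day 9 pair, so Srrm2 adds no support to this count or to the share by probe set. No member had one 0.3 below, where 3.26 and 2.58 percent of all genes did. Members had more such probe sets to look at, 2.52 per gene against 1.63, and by probe set the share was 6.9 percent in each model against 2.57 and 1.98 percent. Over the 58 other probe sets of the members, the gap to the brightest in one model and in the other correlated with r = 0.545 (Pearson) and rho = 0.295 (Spearman). Over the 9159 of all genes these were 0.206 and 0.158. The gaps of both models had the same sign for 31 of the 58 and for 5024 of the 9159. The points share probes of 1 gene, and the brightest probe set enters every gap of its gene.

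**Figure D2:**
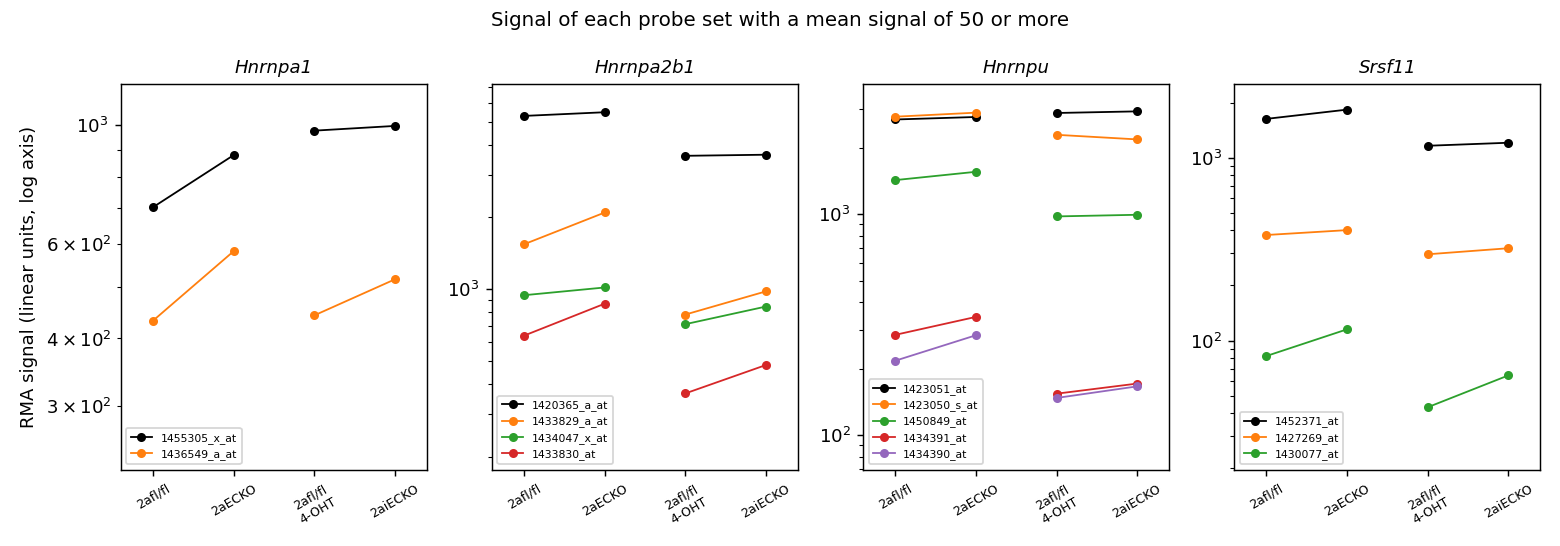
RMA signal on a log axis of each counted probe set of Hnrnpa1, Hnrnpa2b1, Hnrnpu and Srsf11 on the 4 arrays, 1 point per pooled array, with lines joining a control pool to its knockout pool and the brightest probe set in black. The black line of Hnrnpa2b1 is nearly level at 5286 and 5476, while that of 1433830_at climbs from 640 to 870 in the day 9 pair and from 367 to 482 in the day 8 pair.

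**Figure D3:**
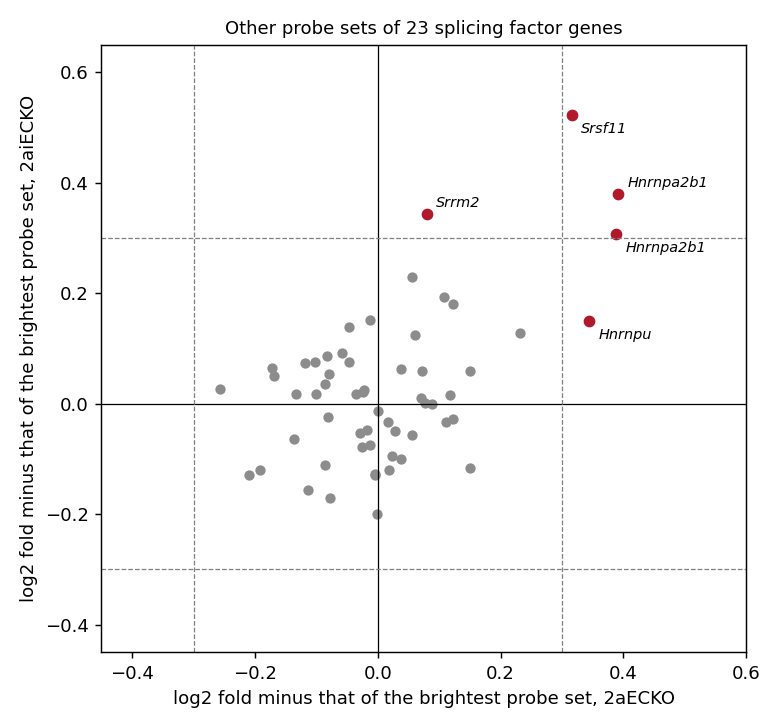
Log2 fold of each other probe set minus that of the brightest probe set of its gene, in 2aECKO on the horizontal axis and in 2aiECKO on the vertical axis, for 58 probe sets of 23 members. Dashed lines mark gaps of 0.3 in either direction, and the 5 points in red past a line belong to Hnrnpa2b1, Srsf11, Hnrnpu and Srrm2 and lie on the positive side in both models.

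Other genes of the splicing machinery lay on both sides of their controls, as did the members. Over 77 measured genes of 86 in 7 lists, the median stood at 0.05 (2aECKO) and 0.00 (2aiECKO). Of the 77, 49 and 39 were above 0, where 46.3 and 46.4 percent of all genes were. The ranges were -0.22 to 0.26 and -0.26 to 0.33. Past the limit upwards were 0 and 1 of them, and none was past it downwards. The snRNP core proteins, which hold the small nuclear RNAs, had medians of -0.02 and 0.02, with 4 and 7 of 10 above 0. Snrnp70 of the U1 particle stood at 0.26 and -0.05, Snrpn at -0.22 and -0.03 and Snrpg at 0.08 and 0.12. Factors of the 3 prime splice site and U2 particle had 0.07 and 0.04, with 7 of 10 above 0 in each. Sf3a1 was at 0.13 and -0.05, U2af2, which binds the polypyrimidine tract, at 0.13 and -0.05 and Sf3b2 at -0.06 and 0.13.

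The tri-snRNP and catalytic factors had medians of 0.07 and -0.02, with 9 and 4 of 12 above 0. Prpf31 stood at -0.20 and -0.03, the helicase Snrnp200 at 0.17 and -0.03 and Prpf3 at 0.13 and -0.14. The kinases that phosphorylate SR proteins and their importer had 0.03 and -0.03, with 5 and 3 of 9 above 0. Among them Clk1 was at 0.20 and 0.06 and Clk4 at 0.17 and 0.14, while Prpf4b was at -0.13 and 0.09. Both Clk genes code for kinases that release SR proteins from speckles.

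Other hnRNP-type proteins had medians of 0.05 and 0.04, with 10 and 8 of 12 above 0. The hnRNP and polypyrimidine tract-binding members, with 18 and 12 of 19 above 0, were thus not alone in leaning upwards. Raly stood at 0.17 and 0.06, Ptbp3 at 0.05 and 0.15 and Tardbp, which represses cryptic exons, at 0.13 and 0.08. Factors of the exon junction and of nonsense-mediated decay, which degrades the unproductive transcripts of SR genes, had 0.06 and 0.01, with 5 of 7 above 0 in each. Upf1 was at 0.16 and 0.06, Upf2 at 0.06 and 0.15 and Smg6 at 0.13 and -0.06.

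The tissue-specific splicing regulators had medians of 0.01 and -0.08, with 9 and 5 of 17 above 0. Qk, the quaking protein of glia, had a signal of 2987 in 2afl/fl, 3127 in 2aECKO, 2046 in 2afl/fl 4-OHT and 2564 in 2aiECKO, and at 0.33 in 2aiECKO it was the gene of these lists past the limit. Nova2, a neuronal regulator, stood at -0.07 and -0.26 and Rbfox2 at -0.02 and -0.17.

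**Figure D4:**
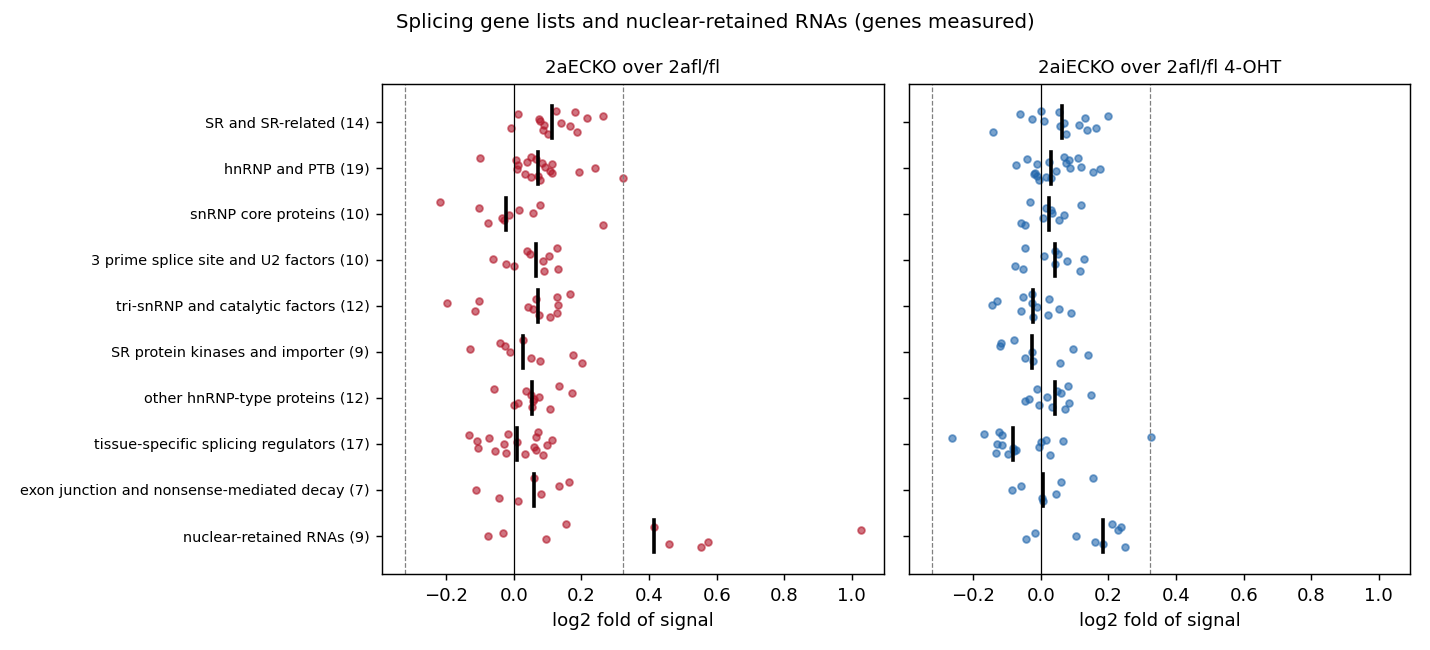
Log2 fold of each measured gene of the splicing lists and of nuclear-retained RNAs, in 2aECKO on the left and 2aiECKO on the right, with points for genes, black bars for list medians and dashed lines at log2 folds of 0.32 and -0.32. In 2aECKO the members lie mostly to the right of 0, with medians of 0.11 (SR and SR-related) and 0.07 (hnRNP and PTB). The nuclear-retained RNAs lie farther out, with medians of 0.41 in 2aECKO and 0.19 in 2aiECKO.

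Other RNAs differed between the same pools by more than the members did. Of 9 RNAs listed as retained in the nucleus, 7 were above 0 in each model and 5 were past the limit upwards in 2aECKO and 0 in 2aiECKO, with medians of 0.41 and 0.19. Their summed signal was 21400 in 2afl/fl, 26860 in 2aECKO, 12890 in 2afl/fl 4-OHT and 13950 in 2aiECKO. Among them Rmst stood at 1.03 and 0.23, Miat at 0.57 and 0.16 and Malat1, the speckle RNA that binds SR proteins, at 0.55 and 0.25, while Neat1, the paraspeckle RNA, stood at -0.08 and 0.10.

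Markers of cell types differed between the pools as well. All 5 neuronal markers were below 0 in both models, with medians of -0.08 and -0.04, and all 5 astrocyte markers were above 0 in both, with medians of 0.21 and 0.27. The summed astrocyte signal was 11270 and 12310 in the day 9 pair and 6946 and 8171 in the day 8 pair. These 5 were not alike: Gfap stood at 0.89 and 0.90, Aldh1l1 at 0.29 and 0.22 and Aqp4 at 0.21 and 0.32. Slc1a3 was at 0.06 and 0.27, and Slc1a2, the brightest, at 0.00 and 0.06. All 4 microglial markers were past the limit upwards in 2aiECKO, with a median of 0.44 against 0.05 in 2aECKO, and their summed signals were 2426 and 2577 at day 9 and 2073 and 2942 at day 8. The 2 measured oligodendrocyte markers had medians of 0.02 and 0.33, the 2 precursor markers -0.11 and -0.12, the 4 endothelial markers -0.02 and -0.13 and the 3 of dividing cells -0.02 and 0.09. The red cell gene Alas2, the only 1 measured of 3 listed, stood at 1.05 and -0.51. Its signal was dim, at 57.9 in 2afl/fl, 119.6 in 2aECKO, 36.8 in 2afl/fl 4-OHT and 25.8 in 2aiECKO. Alas2 passed the minimum mean signal through the day 9 pair. Both day 8 values lay below that minimum, so its fold in 2aiECKO carries little weight. The ratios of 3 prime to 5 prime signal differed little within a pair, at 1.28 and 1.30 and at 1.20 and 1.22 for actin. The part of the nuclear-retained RNAs, the cell types or the RNA ends in the members' folds was not tested.

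The control pools were also compared, as a description and not as a scale for the folds within a pair. After quantile normalization over the 4 arrays, the 2afl/fl 4-OHT pool relative to the 2afl/fl pool had 20 of 33 members above 0 (60.6 percent against 60.0 percent of all genes), and 5 members past the limit upwards (15.2 percent against 14.6 percent). No member was past it downwards, where 7.94 percent of all genes were. The median of the members was 0.04, with a range of -0.29 for Hnrnpa2b1 to 0.77 for Hnrnpa1, and that of all genes was 0.06. The members' range between these controls was wider than within either pair. The controls differ in age and 4-OHT and come from pairs of unlike median signal, and the folds within a pair were taken without this normalization.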

How the data were processed

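RNA of pooled cerebrums was measured in 4 samples, 1 array per group. The authors deposited linear intensity values from robust multichip averaging (RMA), that is, adjusted for background and quantile-normalized. Whether affy in R, as in the paper, or Partek 6.6, as in the submitters' processing notes, was used is not settled by the values. Log2 was taken of the intensity.

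Of 45101 probe sets, 34958 carry 1 symbol in the platform annotation, 932 several and 9211 are unnamed here. Symbols were updated through RefSeq gene identifiers. A gene was read at the probe set of highest mean log2 signal, if the mean was at least 50, and called higher at the study's fold of 1.25 or lower at its mirror image of 0.8, which was set here. Probe sets ending in _x_at or _s_at were taken as of less specific design.

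The members and lists were chosen with earlier results of these data known. Given array by array were members past that fold, the 8 largest differences in each comparison and members whose probe sets differed by 0.3. Of each other splicing list 3 genes were named, mostly by log2 fold alone, and the marker lists were given mostly as medians. The number of arrays limits the precision. Promoter windows came from RefSeq, where 34 of 35 members matched. The calculations were tested on simulated data.

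Alternatives were the mean of a gene's probe sets, no less specific designs, removal of a loess trend (fraction 0.3), centring, a minimum signal of 100 or none, folds of 1.5 and 1.1, quantile normalization over the 4 arrays, and other controls. Python 3.11.15, numpy 2.4.6, pandas 2.3.3, statsmodels 0.14.6 and matplotlib 3.10.9 were used.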

Additional observations from a re-analysis of the deposited data

Results flagged for a closer look

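Srrm2, the speckle scaffold, stood 0.19 above its control on the log2 scale in 2aECKO and at -0.14 in 2aiECKO. It is listed because each knockout pool differed from its own control by at least 0.1 in opposite directions. The difference between the models was not tested, since each group is 1 array.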

How the results depend on the processing

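No paired analysis was possible because each group is 1 array, and replicate numbers are names only. The median log2 fold of the members stayed above 0 in both models under every alternative run, from 0.05 to 0.10 in 2aECKO and from 0.05 to 0.09 in 2aiECKO. With its own control, 30 to 31 members were above 0 in 2aECKO and 23 to 25 in 2aiECKO. Against the control of the other model, after quantile normalization over the 4 arrays, 18 were above 0 in 2aECKO, with 4 higher and 3 lower, and in 2aiECKO 23, with 5 higher and 1 lower, while the share of all genes above 0 moved to 39.6 and 60.1 percent. Against the mean of both controls, 25 and 28 were above 0, beside 41.0 and 58.1 percent of all genes, and 2 were higher in 2aiECKO. The difference between the models reversed to -0.022 and -0.0084 under these settings, and Hnrnpa1 in 2aECKO to -0.43 and -0.042. By construction they carry the difference between the control pools. At a fold of 1.1, 9 members were higher in 2aECKO, and 5 were higher and 1 lower in 2aiECKO, and at 1.5 the count in 2aECKO was 0. The share of all genes past the limit was not taken at these folds or under the other controls. The counts of higher and lower members there are thus not a result about the members. Averaging the probe sets of a gene put Hnrnpa2b1 at 0.26 and 0.24. With 1 array per group, no spread between animals can be given.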
